A study of Sus scrofa with 30 samples.

Results

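Endometrium of pregnant (P) and cyclic (C) pigs was compared on day (D) 12 by small RNA sequencing. The comparison took every library labelled as pregnancy or estrous cycle D12, which gave 5 libraries of PD12 and 4 of CD12, 9 of the 30 in the series. The other libraries came from D16 (5 P and 5 C) and D20 (6 P and 5 C). All gilts were Hampshire x Duroc crossbreds of 7 to 8 months from one herd. The labels give insemination at 12 and 24 h from the third estrus and do not say whether it included the cyclic gilts. Pregnancy was established from conceptuses in the uterus, which were flushed out of the horns before the endometrium was frozen, so a PD12 library is maternal tissue taken after flushing. Each library came from whole endometrial tissue of 1 animal, in which fewer cells of a type and less RNA per cell cannot be told apart.

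MicroRNAs (miRNAs) are short RNAs that bind mRNAs mainly through the seed, the bases from position 2 to 8 of the mature strand, and lower their translation or stability. Porcine conceptuses elongate and release estrogens around this time, and these signals act on an endometrium that progesterone already dominates. IsomiRs are versions of a miRNA that gain (ADD) or lose (DEL) bases at the 3' or 5' end relative to the canonical sequence, and only a change at the 5' end moves the seed.

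Reads were counted on the sequences that the study annotated as miRNAs or isomiRs, of which 872 had reads on D12 and 820 had reads in every one of the 9 libraries. The sequences were also added up per miRNA (237 sums, 236 with reads on D12) and per seed family (170, 169 with reads on D12). A selection of the sequences is printed here, each given as the most abundant deposited sequence of that miRNA with the seed in capitals. The 2 miRNAs of the miR-132/212 family share the seed AACAGTC:
miR-132: tAACAGTCtacagccatggtcg
miR-212: tAACAGTCtccagtcacggcc
The 5 miRNAs of the miR-30 family (miR-30a-5p, miR-30b-5p, miR-30c-5p, miR-30d and miR-30e-5p) share the seed GTAAACA, shown for 3 of them:
miR-30a-5p: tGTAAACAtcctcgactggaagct
miR-30c-5p: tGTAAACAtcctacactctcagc
miR-30e-5p: tGTAAACAtccttgactggaagct
The 2 miRNAs of the miR-10 family share the seed ACCCTGT:
miR-10a-5p: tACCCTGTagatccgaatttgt
miR-10b: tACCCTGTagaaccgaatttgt
Of the remaining sequences, miR-361-3p and miR-335 had a higher mean in PD12 with a small unadjusted p. For the miRNA sums of miR-205 and miR-17-5p the difference between P and C on D12 departed from that on D20. The calls of these sums were lost when certain single D12 libraries were left out. The last is the sequence of the miR-302 assay:
miR-361-3p: tCCCCCAGgtgtgattctgatt
miR-335: tTTTTCATtattgctcctgacc
miR-205: tCCTTCATtccaccggagtctgt
miR-17-5p: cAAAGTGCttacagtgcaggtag
miR-302 assay sequence: tAAACGTGgatgtacttgcttt

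The libraries held 3344957, 3109669, 3401347, 3172099 and 4065849 reads in PD12 and 2668781, 6402731, 2431740 and 4150621 reads in CD12, and between 76.8% and 81.9% of them fell on annotated sequences. Levels are given in CPM, the normalized read unit of edgeR, which relates the reads of a sequence to all annotated reads of the library, scaled by trimmed mean of M-values (TMM) factors. The labels number the animals as biological replicates, and no 2 libraries agreed within counting error (the lowest chi-square per degree of freedom between a pair was 165). The 9 libraries did not form separate groups by status in these comparisons. Over the 539 sequences that averaged 10 CPM or more, the nearest library by correlation of log2(CPM + 1) was of the other group for 5 of the 9 libraries. The closest pair of all was PD12 replicate 4 and CD12 replicate 1 (r = 0.965, across sequences, which are not independent replicates). The first principal component held 36.5% of the variance. It placed PD12 replicate 4 and CD12 replicate 1 at one end (15.7 and 15.4) and PD12 replicate 3 and CD12 replicate 2 at the other (-12.5 and -15.1), so both groups spanned it. On the second component (20.6%) the values were 1.4, -7.74, -14.3, -4.87 and 6.73 for PD12 replicates 1 to 5 and 3.4, 8.88, -2.8 and 9.25 for CD12 replicates 1 to 4, so most PD12 libraries lay below most CD12 libraries and the ranges overlapped. PD12 replicate 3 and CD12 replicate 2 had the largest share, among the 9, of reads on the 10 most abundant sequences, 65.2% and 66.7%.

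No miRNA was called between PD12 and CD12, where a call needed a log2 fold change (log2FC, P relative to C) beyond 1 in either direction and a p below 0.05 after Benjamini-Hochberg adjustment. By edgeR's quasi-likelihood F-test the count was 0 of 872 sequences (0%), 0 of 236 miRNA sums (0%) and 0 of 169 seed families (0%), and the smallest adjusted p was 0.607, 0.351 and 0.383. Before adjustment, p was under 0.05 for 53 sequences (6.08%), of which 31 (3.56%) were higher and 22 (2.52%) lower in P. The same held for 15 miRNA sums (6.36%), 12 higher (5.08%) and 3 lower (1.27%), and for 10 families (5.92%), 9 higher (5.33%) and 1 lower (0.592%). The likelihood ratio test of edgeR called 1 sequence, 0 miRNA sums and 1 family, and DESeq2 called 0 at each level. The levels of the groups did not overlap for 20 sequences (2.29%; 13 or 1.49% higher and 7 or 0.803% lower in P), 5 miRNA sums (2.12%, all higher in P) and 5 families (2.96%, all higher in P).

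The libraries limited how small a difference could be seen. Among the 172 miRNA sums with a mean of at least 10 CPM, the distance from the estimate to the end of the 95% interval had a median of 0.81 on the log2 scale, and the median SE was 0.38. For 49 of 236 miRNA sums (20.8%) the whole interval lay inside a log2FC of -1 to 1, and for 200 (84.7%) it lay inside -2 to 2. The first set held let-7f (log2FC -0.10, SE 0.27, 95% interval -0.68 to 0.48), miR-148a-3p (log2FC -0.24, SE 0.35, 95% interval -0.99 to 0.51), miR-101 (log2FC -0.20) and miR-451. Scaling to all deposited reads turned the estimates of let-7f, miR-148a-3p and miR-101 to 0.21, 0.13 and 0.076. The remaining miRNAs, miR-21 among them, were not shown to be alike in P and C. The median log2FC of all miRNA sums was 0.08, and 53.4% of them were above 0. Scaling to all deposited reads in place of TMM moved this median by 0.29, to 0.36, and put 180 (76.3%) above 0, so differences are read relative to the median of all miRNAs.

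**Figure D1:**
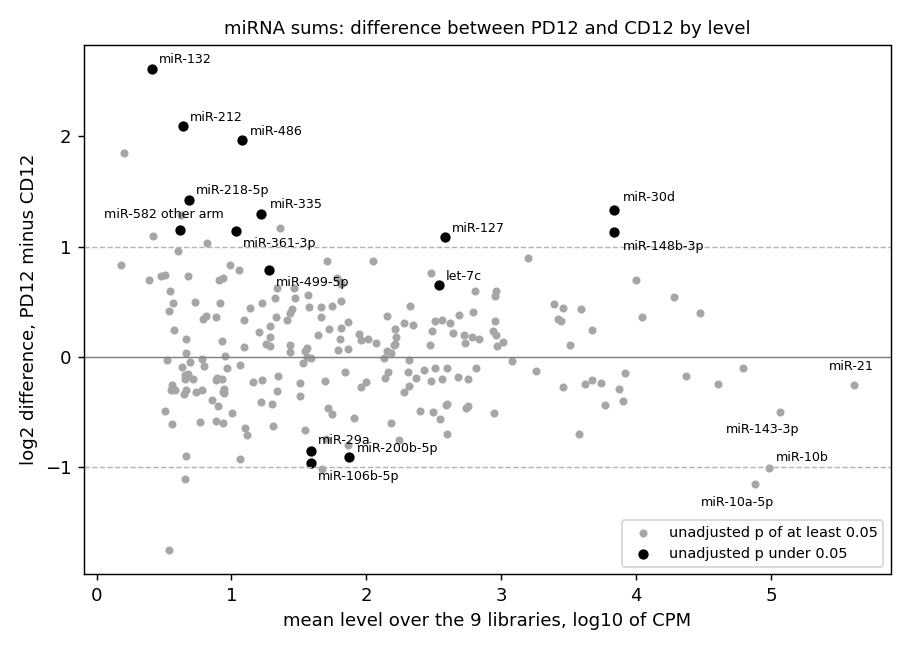
Each point is 1 of 236 miRNA sums, with the log10 of its mean CPM over the 9 D12 libraries on the x axis and the log2 difference of PD12 minus CD12 on the y axis. The 15 black points had an unadjusted p under 0.05 (12 above 0 and 3 below), none passed after adjustment, and dashed lines mark a log2FC of -1 and 1.

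Among seed families the smallest p-value belonged to the miR-132/212 family, a pair transcribed from one locus under control of the cAMP response element binding protein (CREB). Their summed level was 10.8, 7.05, 23.6, 5.21 and 6.71 CPM in PD12 replicates 1 to 5 and 3.11, 1.78, 3.27 and 0.754 CPM in CD12 replicates 1 to 4. Every PD12 library lay above every CD12 library, and PD12 replicate 3 was the highest. The means were 10.7 ± 7.5 CPM (SD, n = 5) in PD12 and 2.23 ± 1.19 CPM (SD, n = 4) in CD12 (log2FC 2.27, SE 0.61, 95% interval 0.95 to 3.59, edgeR adjusted p = 0.383, unadjusted p = 0.00254). The family was called by the likelihood ratio test (adjusted p = 0.040) and in 1 fit of all 30 libraries (adjusted p = 0.0447), while the adjusted p in the other fits ran from 0.114 to 0.839. These levels were low, from 2 to 55 reads a library.

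Both members contributed. The level of miR-212 was 5.11, 6.41, 13.3, 3.35 and 4.96 CPM in PD12 replicates 1 to 5 and 2.08, 1.78, 1.87 and 0.377 CPM in CD12 replicates 1 to 4, again without overlap (log2FC 2.09, SE 0.62, 95% interval 0.77 to 3.41, edgeR adjusted p = 0.351, unadjusted p = 0.00426). The level of miR-132 was 5.71, 0.641, 10.3, 1.86 and 1.75 CPM in PD12 replicates 1 to 5 and 1.04, 0, 1.4 and 0.377 CPM in CD12 replicates 1 to 4, and the ranges overlapped because PD12 replicate 2 lay at 0.641 CPM (log2FC 2.61, SE 0.98, 95% interval 0.50 to 4.72, edgeR adjusted p = 0.652, unadjusted p = 0.0187). Its log2FC ran from 1.97 to 3.26 when 1 library was left out. miR-212 was read as 2 sequences. The 22 nt form had at most 12 reads in a PD12 library and at most 1 in a CD12 library, with 0 in CD12 replicate 4, so its fold change rests on single reads in CD12. It had the smallest p of the annotated sequences (log2FC 3.28, SE 0.76, 95% interval 1.65 to 4.90, edgeR adjusted p = 0.607, unadjusted p = 0.000696), and the likelihood ratio test called it (adjusted p = 0.0187). The log2FC of the family stayed between 1.77 and 2.53 when any 1 library was left out.

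**Figure D2:**
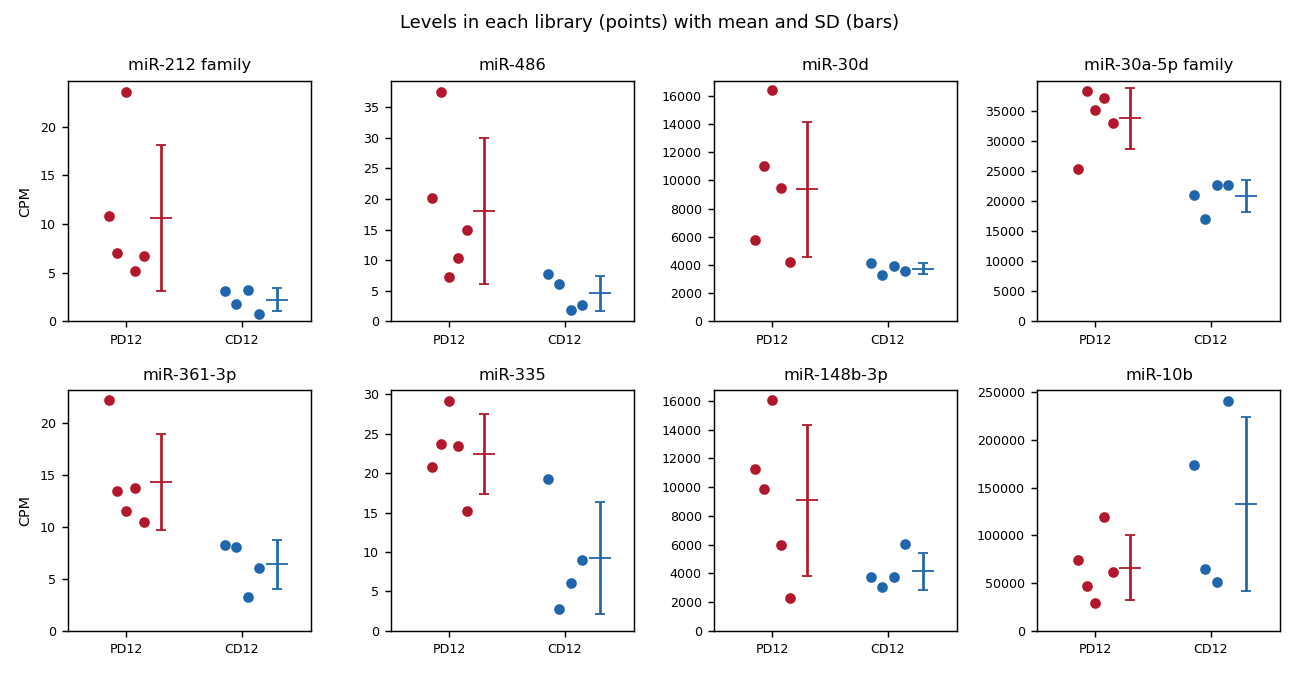
Points are the CPM of each library, red for the 5 PD12 and blue for the 4 CD12 libraries, on axes that start at 0, and bars give the mean and SD. The groups do not overlap for the miR-132/212 family (labelled miR-212 family), miR-30d, the miR-30 family (labelled miR-30a-5p family) and miR-361-3p, and they overlap for miR-486, miR-335, miR-148b-3p and miR-10b.

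The miR-30 family, abundant in epithelia, showed the same order at a far higher level. Its 5 members summed to 25368, 38197, 35039, 37136 and 33029 CPM in PD12 replicates 1 to 5 and 21002, 17085, 22635 and 22650.3 CPM in CD12 replicates 1 to 4. The lowest PD12 library was above the highest CD12 library (25368 and 22650.3 CPM). The family mean was 33754 ± 5091 CPM (SD, n = 5) in PD12 and 20843 ± 2622 CPM (SD, n = 4) in CD12 (log2FC 0.70, SE 0.26, 95% interval 0.15 to 1.24, edgeR adjusted p = 0.685, unadjusted p = 0.0169).

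Within the family miR-30d had the largest log2FC, and miR-30a-5p, the most abundant member, had the largest difference in CPM. miR-30d had 5762, 11018, 16379.7, 9431 and 4189 CPM in PD12 replicates 1 to 5 and 4144, 3268, 3917 and 3562 CPM in CD12 replicates 1 to 4. CD12 libraries lay within a narrow range and PD12 libraries spread from just above it to PD12 replicate 3 at 16379.7 CPM (log2FC 1.33, SE 0.39, 95% interval 0.49 to 2.17, edgeR adjusted p = 0.351, unadjusted p = 0.00446). Of the 6 sequences of miR-30d, 5 were higher in PD12, against 52.5% of all 872 sequences. The canonical form (log2FC 1.48, SE 0.42, unadjusted p = 0.00324) and the form 1 base shorter at the 3' end (1.80, SE 0.55, unadjusted p = 0.00581) were among the 8 sequences with the smallest p. miR-30a-5p had 22264 ± 4590.1 CPM (SD, n = 5) in PD12 and 15293 ± 2276 CPM (SD, n = 4) in CD12 (log2FC 0.54, SE 0.29, 95% interval -0.09 to 1.17). The log2FC was 0.41 for miR-30c-5p, 0.32 for miR-30e-5p and -0.18 for miR-30b-5p, each with an interval that spanned 0. The other arm of the miR-30a hairpin, miR-30a-3p, had a log2FC of -0.20, or 0.00718 when scaled to all deposited reads.

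miR-486, which red blood cells and muscle carry in quantity, had 20.1, 37.5, 7.28, 10.4 and 14.9 CPM in PD12 replicates 1 to 5 and 7.78, 6.09, 1.87 and 2.64 CPM in CD12 replicates 1 to 4. All but PD12 replicate 3 were above CD12 replicate 1, the highest cyclic library (log2FC 1.97, SE 0.57, 95% interval 0.74 to 3.19, edgeR adjusted p = 0.351, unadjusted p = 0.00396). The miRNAs of the erythrocyte list are given beside it. The list had 4 sums, all with a log2FC above 0, against 53.4% of all miRNA sums. Of the 4, 1 (miR-486) had an unadjusted p under 0.05, as 6.36% of all miRNA sums did. The median log2FC of the list was 0.66, against 0.08 over all miRNA sums. Its summed level was 720.3, 1339, 1217, 850.1 and 1568 CPM in PD12 replicates 1 to 5 and 1093, 1474, 566 and 608 CPM in CD12 replicates 1 to 4. This sum was mostly miR-451, the main miRNA of red blood cells, whose level was 966 ± 294 CPM (SD, n = 5) in PD12 and 843 ± 391 CPM (SD, n = 4) in CD12 (log2FC 0.20, 95% interval -0.61 to 1.00). The part of blood in the value of miR-486 was not tested.

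Other miRNA sums had a higher mean in PD12 with a small unadjusted p and no adjusted call. miR-361-3p had 22.2, 13.5, 11.6, 13.8 and 10.5 CPM in PD12 replicates 1 to 5 and 8.3, 8.12, 3.27 and 6.03 CPM in CD12 replicates 1 to 4, with no overlap (log2FC 1.14, SE 0.42, 95% interval 0.24 to 2.05, edgeR adjusted p = 0.652, unadjusted p = 0.0171). miR-335, encoded in an intron of the imprinted gene MEST, had 20.7, 23.7, 29.1, 23.4 and 15.2 CPM in PD12 replicates 1 to 5 and 19.2, 2.79, 6.07 and 9.04 CPM in CD12 replicates 1 to 4. Its cyclic libraries were below all pregnant ones except CD12 replicate 1 (log2FC 1.30, SE 0.49, 95% interval 0.25 to 2.35, edgeR adjusted p = 0.652, unadjusted p = 0.0189). Leaving out 1 library gave a log2FC of 0.98 (without CD12 replicate 2) to 1.92 (without CD12 replicate 1). miR-218-5p had 6.68 ± 3.14 CPM (SD, n = 5) in PD12 and 2.54 ± 1.85 CPM (SD, n = 4) in CD12 (log2FC 1.42, SE 0.59, 95% interval 0.16 to 2.69, edgeR adjusted p = 0.652, unadjusted p = 0.0299). miR-148b-3p had 11251, 9846, 16042, 5985 and 2275 CPM in PD12 replicates 1 to 5 and 3775, 3021, 3719 and 6023 CPM in CD12 replicates 1 to 4, and PD12 replicate 5 was the lowest of all 9 (log2FC 1.13, SE 0.47, 95% interval 0.13 to 2.14, edgeR adjusted p = 0.652, unadjusted p = 0.0302). Its family mate miR-148a-3p, the more abundant of the pair, had a log2FC of -0.24, or 0.13 when scaled to all deposited reads. The log2FC of miR-148b-3p was -0.24 within the libraries numbered 25 to 36 in the labels. With means of at least 10 CPM, the 4 largest positive log2FC were those of miR-486, miR-30d, miR-335 and miR-409-5p (1.17, SE 0.69). The place of miR-409-5p rested on single libraries, since its log2FC was 0.49 without PD12 replicate 4 and 1.96 without CD12 replicate 1.

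The largest negative log2FC at a mean of at least 10 CPM were those of miR-10a-5p, miR-491, miR-10b and miR-106b-5p. The genes of miR-10a and miR-10b lie in the HOX clusters. miR-10a-5p had 55171, 35338, 13759.5, 97692 and 46119.8 CPM in PD12 replicates 1 to 5 and 215064, 41213, 29929.7 and 154765 CPM in CD12 replicates 1 to 4. miR-10b had 73956, 46493, 28744, 118953 and 61964 CPM in PD12 replicates 1 to 5 and 174031, 64960.0, 50914 and 241179 CPM in CD12 replicates 1 to 4. In both miRNAs CD12 replicates 1 and 4 were the highest libraries, and CD12 replicates 2 and 3 lay among the pregnant ones. The log2FC was -1.15 for miR-10a-5p (SE 0.59, 95% interval -2.42 to 0.12, edgeR adjusted p = 0.675) and -1.01 for miR-10b (SE 0.49, 95% interval -2.05 to 0.04, edgeR adjusted p = 0.652). All 21 sequences of miR-10a-5p and all 11 of miR-10b had a negative log2FC, while 52.5% of all 872 sequences were above 0. Sequences of the same miRNA were read in the same libraries and are not independent replicates. When 1 library was left out, the log2FC of miR-10a-5p ran from -1.56 to -0.60, the latter without CD12 replicate 1, and that of miR-10b from -1.34 to -0.55, the latter without CD12 replicate 4. The lowest unadjusted p among negative sums belonged to miR-106b-5p, of the cell cycle cluster of miR-106b, with 27.1 ± 14 CPM (SD, n = 5) in PD12 and 53 ± 24.5 CPM (SD, n = 4) in CD12 (log2FC -0.96, SE 0.41, 95% interval -1.84 to -0.09, edgeR adjusted p = 0.652, unadjusted p = 0.0332). miR-29a, which targets collagen mRNAs, had 28.4 ± 7.63 CPM (SD, n = 5) in PD12 and 51.4 ± 22.7 CPM (SD, n = 4) in CD12 (log2FC -0.85, SE 0.37, 95% interval -1.65 to -0.06, edgeR adjusted p = 0.652, unadjusted p = 0.0374). miR-491 had 32.4 ± 30.2 CPM (SD, n = 5) in PD12 and 65.5 ± 28.8 CPM (SD, n = 4) in CD12 (log2FC -1.01, SE 0.54, 95% interval -2.17 to 0.15). PD12 replicate 5 was at 84.4 CPM and the other PD12 libraries at 11.4 to 32.8 CPM, and the log2FC was -1.77 without PD12 replicate 5.

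The 10 most abundant miRNA sums were miR-21, miR-143-3p, miR-10b, miR-10a-5p, let-7f, miR-148a-3p, let-7g, let-7i, miR-30a-5p and miR-99a, ordered by their mean CPM. miR-21, which had the highest mean, had 284551, 267449, 685812, 228202 and 426839 CPM in PD12 replicates 1 to 5 and 277509, 701593, 458591 and 362729 CPM in CD12 replicates 1 to 4. PD12 replicate 3 and CD12 replicate 2 stood above all other libraries and the range within each group exceeded the difference between their means (log2FC -0.25, SE 0.38, 95% interval -1.06 to 0.56). miR-143-3p, a miRNA of smooth muscle and stroma, had 99268 ± 17322 CPM (SD, n = 5) in PD12 and 139869.8 ± 47926 CPM (SD, n = 4) in CD12 (log2FC -0.49, SE 0.30, 95% interval -1.14 to 0.15). miR-99a had 6896, 14162, 3093, 32528 and 4899.9 CPM in PD12 replicates 1 to 5 and 23129, 2224, 4817 and 8211 CPM in CD12 replicates 1 to 4, and its highest libraries were PD12 replicate 4 and CD12 replicate 1 (log2FC 0.36, SE 0.70, 95% interval -1.15 to 1.87). The let-7 miRNAs, which restrain growth and differ by few bases from each other, had estimates on both sides of 0, although those of let-7f and let-7i turned to 0.21 and 0.18 when scaled to all deposited reads. The log2FC was 0.70 for let-7a (unadjusted p = 0.0538), 0.65 for let-7c (unadjusted p = 0.0448), 0.40 for let-7g, -0.10 for let-7f and -0.17 for let-7i. It was lowest for let-7e, at -0.44. Summed over the 10 miRNAs with the let-7 seed it was 0.07 (95% interval -0.45 to 0.58). Of the 37 seed families with at least 2 miRNAs, 12 had all members above a log2FC of 0 and 9 had all members below it. Many of these families held only 2 members, where a shared sign is frequent by chance, and the counts were not compared with chance.

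**Figure D3:**
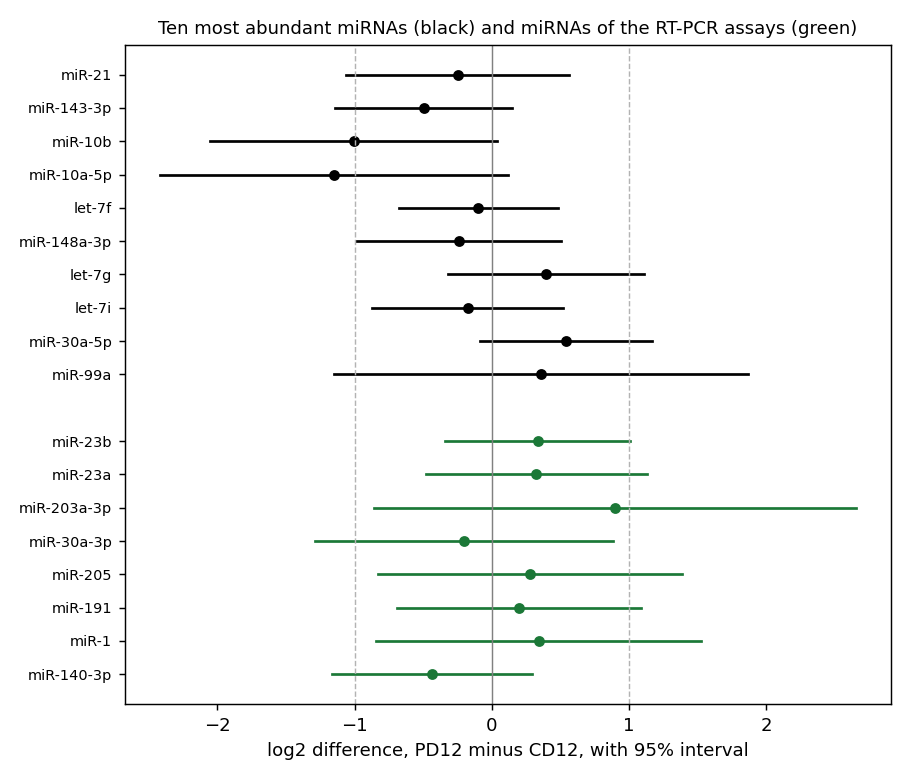
Points give the log2 difference of PD12 minus CD12 and lines its 95% interval, for the 10 most abundant miRNA sums (black) and 8 sums of miRNAs measured by RT-PCR or transfected in the study (green). All 18 intervals cross 0, and dashed lines mark -1 and 1.

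Several of these miRNAs were also measured by RT-PCR or transfected in the study. Among their sums none was called on D12. The level of miR-203 (named miR-203a-3p here), a miRNA of differentiating epithelium, was 503, 592, 515, 3159 and 5141 CPM in PD12 replicates 1 to 5 and 3032, 380.0, 479 and 363 CPM in CD12 replicates 1 to 4. The values fell into 3 libraries between 3032 and 5141 CPM and 6 between 363 and 592 CPM, with none between. The high libraries were PD12 replicates 4 and 5 and CD12 replicate 1 (log2FC 0.90, SE 0.82, 95% interval -0.86 to 2.65, edgeR adjusted p = 0.78, unadjusted p = 0.291). Leaving out 1 library moved its log2FC from 0.07 to 2.28, the latter without CD12 replicate 1 and the former without PD12 replicate 5. It was -1.61 within the libraries numbered 13 to 24 in the labels (PD12 replicates 2 and 3, CD12 replicates 1 and 2) and 3.30 within those numbered 25 to 36 (PD12 replicates 4 and 5, CD12 replicates 3 and 4). The libraries were multiplexed in 3 pools, and which library was in which pool is not given in the sources used here. miR-1, a miRNA of striated and smooth muscle, had 1108, 2283, 7600.5, 2249 and 1359 CPM in PD12 replicates 1 to 5 and 1525, 1614, 4465 and 1619 CPM in CD12 replicates 1 to 4, with PD12 replicate 3 and CD12 replicate 3 above the rest of their groups (log2FC 0.34, SE 0.55, 95% interval -0.84 to 1.52). The muscle list held 3 sums (miR-1, miR-206 and miR-499-5p), all 3 with a log2FC above 0 and a median of 0.34, against 53.4% above 0 and a median of 0.08 over all miRNA sums. Of the 3, miR-499-5p had an unadjusted p under 0.05, as 6.36% of all miRNA sums did (log2FC 0.79, unadjusted p = 0.0407). The summed level of the list, mostly miR-1, was 2948 ± 2678 CPM (SD, n = 5) in PD12 and 2324 ± 1442 CPM (SD, n = 4) in CD12, and the miR-133 names of the list had no sum. PD12 replicate 3 also had the highest level of miR-212, miR-30d, miR-148b-3p and miR-127 of all 9 libraries, and the part of muscle in those values was not tested. Without PD12 replicate 3 the log2FC of miR-1 was -0.40.

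The log2FC of the other RT-PCR miRNAs was 0.33 for miR-23b (SE 0.31), 0.33 for miR-23a (SE 0.38), 0.28 for miR-205 (SE 0.52), 0.20 for miR-191 (SE 0.42) and -0.20 for miR-30a-3p (SE 0.51). For miR-140-3p, which the study transfected, it was -0.44 (SE 0.34). These are sums over all sequences of a miRNA, whereas the study's endometrial assays for miR-23a and miR-30a-3p read single isomiRs. Each interval spanned 0, and the groups overlapped for each. miR-302, a miRNA of pluripotent cells, was read by the assay sequence printed above, which the annotation lists under ENSSSCG00000026728. It had 0 reads in all 9 libraries of D12. A limit of 3 reads a library corresponded to 0.761 to 1.56 CPM, which covers counting error only. The same sequence had 4 to 121 reads in the PD20 libraries and 0 to 2 in the CD20 libraries.

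Lists of miRNAs that mark cell types or have been tied to endometrial processes were described by their counts beside those of all miRNA sums (53.4% of 236 above 0, median log2FC 0.08, 15 at an unadjusted p under 0.05). The epithelial list, led by miR-182 and the miR-200 family, had 17 of 18 sums at a mean of at least 10 CPM. The stromal and smooth muscle list, led by miR-143-3p, had 11 of 11, so marker miRNAs of both compartments of the endometrium were read. In the epithelial list there were 10 of 18 sums above 0, median log2FC 0.21, with 0 higher and 1 lower (miR-200b-5p, log2FC -0.91) at an unadjusted p under 0.05. In the stromal list there were 6 of 11 sums above 0, median log2FC 0.06, with 0 at that p. The endothelial list was both arms of miR-126 (log2FC 0.32 for miR-126-3p and 0.26 for miR-126-5p). The leukocyte list, led by miR-342, had 1 of 5 sums above 0, median log2FC -0.18. The list of embryo and trophoblast miRNAs (the miR-302 and miR-371 groups) had no sum in these libraries.

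Among the process lists, the CREB-linked pair was the 1 of 17 lists whose summed levels did not overlap between PD12 and CD12. The list aimed at prostaglandin synthesis (PTGS2), led by miR-101, summed to 8763 ± 692 CPM (SD, n = 5) in PD12 and 9827 ± 1128 CPM (SD, n = 4) in CD12, with 3 of 8 sums above 0, median log2FC -0.05. For miRNAs aimed at the progesterone and estrogen receptors, led by miR-140-3p, there were 11 of 15 sums above 0, median log2FC 0.16. For angiogenesis, led by miR-27b-3p, there were 14 of 18 sums above 0, median log2FC 0.27. For the miR-17 to miR-92 cluster and its paralogs, led by miR-25-3p (log2FC 0.60), there were 8 of 10 sums above 0, median log2FC 0.21, with 0 higher and 1 lower (miR-106b-5p, log2FC -0.96, unadjusted p = 0.0332) at an unadjusted p under 0.05. For inflammation, which miR-21 dominates, there were 6 of 12 sums above 0, median log2FC 0.07. For the p53-linked list, led by miR-34c, there were 2 of 6 sums above 0, median log2FC -0.04. For the let-7 list there were 9 of 15 sums above 0, median log2FC 0.11, with 1 (let-7c) at an unadjusted p under 0.05. The matrix list had 1 sum, miR-29a, described above. Some miRNAs named in the text, among them miR-200b-5p, miR-499-5p, let-7a, let-7c and let-7e, fall outside the rule for named miRNAs and were named after their values were seen.

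The imprinted DLK1-DIO3 cluster encodes many miRNAs that are abundant in placenta and stroma, and 21 sums belonged to its list. Of these, 12 were above 0 with a median log2FC of 0.20, and 1, the most abundant member miR-127, had an unadjusted p under 0.05. miR-127 had 416, 298, 1259.7, 323 and 209.6 CPM in PD12 replicates 1 to 5 and 159.8, 228, 321 and 236 CPM in CD12 replicates 1 to 4. PD12 replicate 3 was far above the others, and the remaining libraries overlapped (log2FC 1.08, SE 0.49, 95% interval 0.03 to 2.13, edgeR adjusted p = 0.652, unadjusted p = 0.0439). Without PD12 replicate 3 its log2FC was 0.40 (unadjusted p = 0.249).

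**Figure D4:**
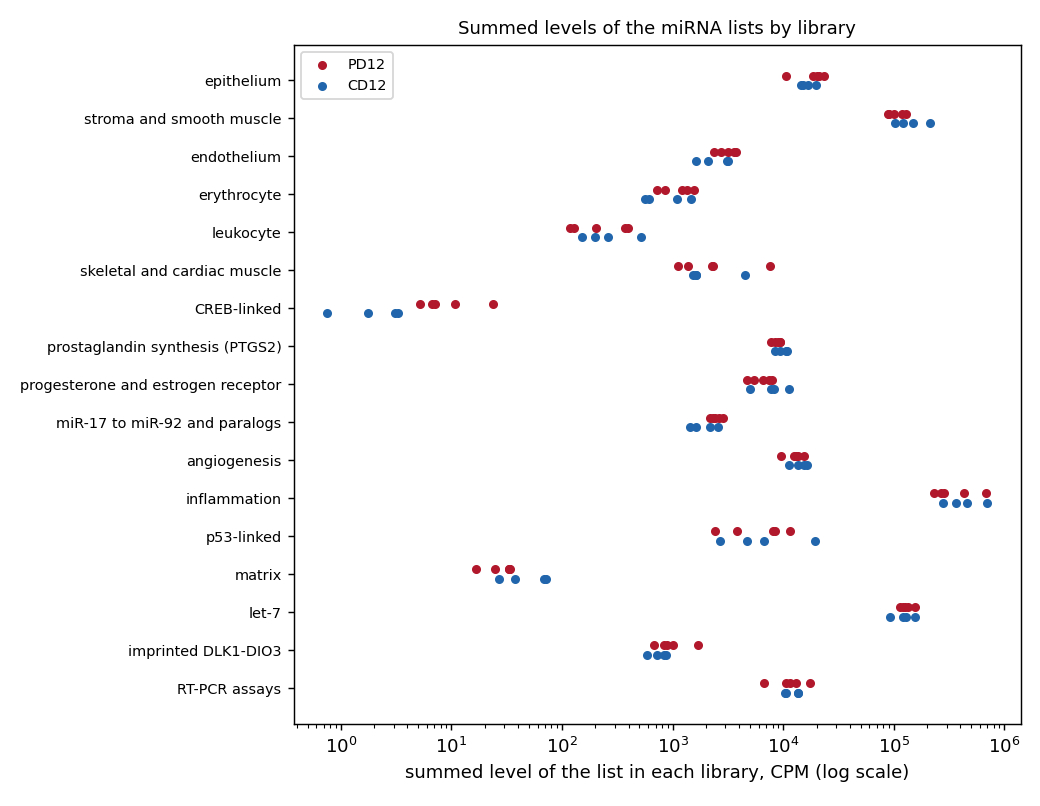
Each row is 1 of the 17 lists with at least 1 miRNA sum, and each point is the summed CPM of the list in 1 library on a log axis, red for PD12 and blue for CD12. The groups separate in the row of the CREB-linked pair and overlap in the other 16.

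The make-up of the libraries was compared through 16 measures. Each had an exact two-sided permutation test over all assignments of the 9 libraries, with Benjamini-Hochberg adjustment over the 16. No measure passed after adjustment, and 2 had an unadjusted p under 0.05. Canonical sequences took 52.9, 53.9, 51.7, 54.3 and 52.4% in PD12 replicates 1 to 5 and 58.2, 59.2, 53.2 and 60.2% in CD12 replicates 1 to 4 of the reads placed on pig miRNAs. The pregnant libraries lay in a narrow band, which CD12 replicate 3 shared, and the other cyclic libraries were above it. The means were 53% ± 1.06 (SD, n = 5) and 57.7% ± 3.12 (SD, n = 4), with an exact permutation p = 0.0238 and an adjusted p = 0.381. With the reads of miR-10a-5p and miR-10b left out, an alternative added after the values were seen, they were 50.2% ± 1.61 (SD, n = 5) and 53.1% ± 4.52 (SD, n = 4), with an exact permutation p = 0.206. Leaving out the reads of miR-21 instead gave 58.9% ± 0.807 (SD, n = 5) and 62% ± 2.98 (SD, n = 4), with an exact permutation p = 0.0794.

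Reads of 22 nt, the most frequent length, made up 48.8, 48.1, 44.3, 48.6 and 47.7% in PD12 replicates 1 to 5 and 54.6, 50.3, 47.5 and 56.1% in CD12 replicates 1 to 4 (exact permutation p = 0.0476, adjusted p = 0.381, n = 5 and 4). IsomiRs with additions at the 3' end held 35% ± 4.01 (SD, n = 5) of placed reads in PD12 and 31% ± 4.85 (SD, n = 4) in CD12. Those with 3' deletions held 8.8% ± 2.16 and 7.22% ± 1.45, and those with a shifted 5' end, hence another seed, held 3.23% ± 1.29 and 4.11% ± 2.07 with the same n. The exact permutation p of these 3 measures ran from 0.206 to 0.437.

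The balance of isomiRs against the canonical sequence was tested per miRNA as a log2 ratio of reads, with limma, for 108 miRNAs. None was called at an adjusted p under 0.05 (0%), and 9 had an unadjusted p under 0.05 (6 with relatively more isomiR reads in PD12 and 3 with fewer). The 4 with the smallest p were miR-99b, miR-196b-5p, miR-26a and miR-450b-5p. For miR-196b-5p, another miRNA of the HOX clusters, the log2 ratio was 1.69, 2.29, 2.08, 1.63 and 1.39 in PD12 replicates 1 to 5 and 0.94, 1.34, 1.07 and 1.20 in CD12 replicates 1 to 4, with every pregnant library above every cyclic one (difference 0.68, SE 0.23, limma adjusted p = 0.399). For miR-26a it was -3.04, -2.92, -2.59, -2.80 and -2.53 in PD12 replicates 1 to 5 and -2.01, -2.21, -1.98 and -2.51 in CD12 replicates 1 to 4, with every pregnant library below (difference -0.60, SE 0.21, limma adjusted p = 0.399). The difference was -0.75 for miR-99b (SE 0.25) and -0.80 for miR-450b-5p (SE 0.28), with overlap. These 4 were picked by their p, and how many of the 108 ratios had no overlap is not given here.

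Single sequences with a small p and no overlap pointed both ways. The 21 nt form of miR-200c-3p, a miRNA that keeps cells epithelial, had 30.9, 56.4, 59.6, 33.5 and 29.2 CPM in PD12 replicates 1 to 5 and 15.6, 20.6, 21.5 and 7.91 CPM in CD12 replicates 1 to 4 (log2FC 1.35, SE 0.42, 95% interval 0.45 to 2.25, edgeR adjusted p = 0.677, unadjusted p = 0.00621), while the miRNA sum, which was far more abundant, had a log2FC of 0.25. The isomiR of miR-10a-5p with 1 base added at each end, and so another seed, had 11.7, 8.65, 7.28, 8.93 and 15.2 CPM in PD12 replicates 1 to 5 and 17.6, 36, 21.5 and 27.1 CPM in CD12 replicates 1 to 4 (log2FC -1.30, SE 0.38, 95% interval -2.12 to -0.48, edgeR adjusted p = 0.677, unadjusted p = 0.00435). The 21 nt form of miR-193b-3p had 3.02 ± 1.13 CPM (SD, n = 5) in PD12 and 10.7 ± 8.99 CPM (SD, n = 4) in CD12 (log2FC -1.82, SE 0.55, edgeR adjusted p = 0.677, unadjusted p = 0.00538), where CD12 replicate 2 reached 24.1 CPM and the log2FC without it was -1.02. miR-486 with 1 base less at the 3' end had 7.6 ± 4.7 CPM (SD, n = 5) in PD12 and 1.77 ± 1.08 CPM (SD, n = 4) in CD12 (log2FC 2.03, SE 0.62, 95% interval 0.69 to 3.37). let-7a with 3 bases less at the 3' end had 15.1 ± 6.15 CPM (SD, n = 5) in PD12 and 4.35 ± 3.2 CPM (SD, n = 4) in CD12 (log2FC 1.73, SE 0.56, 95% interval 0.54 to 2.92), with overlap and a log2FC of 1.47 to 2.37 when 1 library was left out.

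To ask whether D12 stands apart from later days, the difference between P and C on D12 was compared with that on D16 and D20 in a single fit of all 30 libraries. Against D16 it departed for 0 of 237 miRNA sums (0%), with 16 at an unadjusted p under 0.05, and for 0 sequences (0%), with 71 at that p. The likelihood ratio test also called 0 at both levels. Against D20 it departed for 4 miRNA sums (1.69%), with 36 at an unadjusted p under 0.05, and for 1 sequence (0.115%), with 143 at that p. In the study, conceptuses were flushed from the horns up to D16, while PD20 tissue was taken at implantation sites once embryos and trophoblast were removed. The part of this sampling in the departures from D20 was not tested. The levels that follow were scaled over the 30 libraries and so differ slightly from those above.

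miR-205, a miRNA of epithelial progenitors, was the first of the 4 miRNA sums that departed from D20. On D12 its level was 21.6 ± 18.7 CPM (SD, n = 5) in PD12 and 18.2 ± 6.06 CPM (SD, n = 4) in CD12, on D16 15.3 ± 7.63 CPM (SD, n = 5) in PD16 and 63.3 ± 42.4 CPM (SD, n = 5) in CD16, and on D20 5.95 ± 5.3 CPM (SD, n = 6) in PD20 and 54.8 ± 20.3 CPM (SD, n = 5) in CD20. The difference on D12 minus that on D20 was 3.49 on the log2 scale (SE 0.80, edgeR adjusted p = 0.0259). The log2 difference between P and C was 0.26 on D12 and -3.23 on D20. miR-212 was the second. On D12 its level was 7.00 ± 4.31 CPM (SD, n = 5) in PD12 and 1.58 ± 0.795 CPM (SD, n = 4) in CD12, on D16 8.92 ± 5.48 CPM (SD, n = 5) in PD16 and 3.17 ± 2.39 CPM (SD, n = 5) in CD16, and on D20 10.7 ± 1.72 CPM (SD, n = 6) in PD20 and 22 ± 8.5 CPM (SD, n = 5) in CD20. The difference on D12 minus that on D20 was 3.16 on the log2 scale (SE 0.76, edgeR adjusted p = 0.0259). The log2 difference between P and C was 2.11 on D12 and -1.05 on D20.

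For miR-17-5p, a member of the proliferative miR-17 cluster, the departure was 2.12 (SE 0.55, edgeR adjusted p = 0.0352), with 28.9 ± 8.47 CPM (SD, n = 5) in PD12 and 23.4 ± 2.52 CPM (SD, n = 4) in CD12 against 34.3 ± 16.1 CPM (SD, n = 6) in PD20 and 120.2 ± 86.2 CPM (SD, n = 5) in CD20. For miR-411, of the DLK1-DIO3 cluster, it was 1.43 (SE 0.37, edgeR adjusted p = 0.0352), with 48.2 ± 10.7 CPM (SD, n = 5) in PD12 and 42.7 ± 9.94 CPM (SD, n = 4) in CD12 against 29.5 ± 6.27 CPM (SD, n = 6) in PD20 and 70.0 ± 17.8 CPM (SD, n = 5) in CD20. The single sequence was the canonical miR-205, which stayed called when any 1 D12 library was left out. The counts of called miRNA sums and sequences moved with single libraries. The count of miRNA sums was 0 without PD12 replicate 1, CD12 replicate 2 or CD12 replicate 4. It was 1 (miR-205) without PD12 replicate 2 and 2 (miR-205 and miR-212) without PD12 replicate 4. Without CD12 replicate 1 it was 3, and miR-17-5p was not called. It was 4 without PD12 replicate 5, and 8 without PD12 replicate 3 or CD12 replicate 3.

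For miR-30d the mean level was higher in P than in C on each day. The log2 difference was 0.84 on D16 (95% interval -0.05 to 1.72) and 1.10 on D20 (95% interval 0.24 to 1.96). miR-361-3p and miR-486 had the smallest p of all miRNA sums when D12 was set against D16. Their departures were 1.62 (SE 0.46) and 2.83 (SE 0.83), with an edgeR adjusted p of 0.218 for each.

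**Figure D5:**
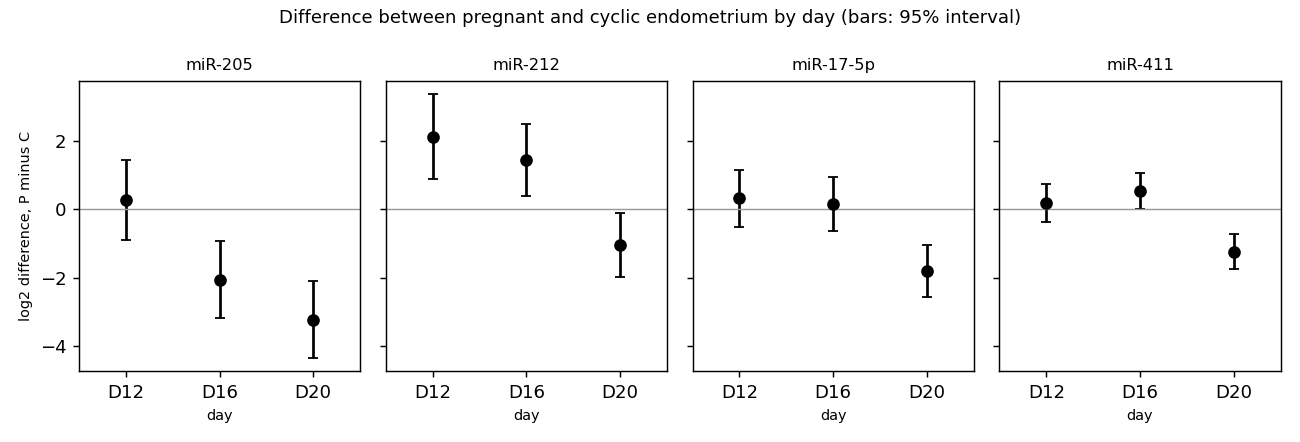
Points give the log2 difference of P minus C on D12, D16 and D20 in 1 fit of all 30 libraries, with the 95% interval as bars, for the 4 miRNA sums whose difference on D12 departed from that on D20. Each is above 0 on D12 and below 0 on D20, and the intervals on D12 cross 0 for miR-205, miR-17-5p and miR-411.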

How the data were processed

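Small RNA libraries of 9 endometrial samples of D12 were analysed. The authors trimmed adapters, removed reads with a low-quality or unknown base or under 17 nt, and collapsed identical reads, and the deposited values are raw counts per sequence. No alignment enters these files. Here counts were joined to the sequences of the study's annotation and summed per miRNA and per seed family (bases 2 to 8 of the most abundant sequence). Differences were tested with edgeR 4.0.16 (quasi-likelihood F-test, TMM, no filter on low counts) under R 4.3.3, and isomiR ratios with limma 3.58.1 on log2 values with a pseudocount of 0.5 reads. Adjustment was by Benjamini-Hochberg over all features tested. The test was checked on simulated counts. Alternatives were the likelihood ratio test, DESeq2 1.42.0, other scalings and filters, a block, runs of library numbers and leaving out each library. P-values measure the spread between libraries of single gilts. Named were the most abundant miRNAs, those with the smallest p or largest log2FC, those measured by RT-PCR or transfected, and the leading member of each list. The members and lists were chosen with earlier results of these data known. Intervals cover the spread between libraries, and the read limit for an absent sequence covers counting error only.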

Additional observations from a re-analysis of the deposited data

Results flagged for a closer look

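Values of 12 of the 134 groups of libraries examined (8.96%) held a library far from the rest by Dixon's test at the 95% level, where chance gives about 1 in 20. Among PD12 libraries these were miR-361-3p at 22.23 CPM, miR-106b-5p at 51.96 CPM, miR-23b at 605.9 CPM, miR-30a-3p at 1191 CPM, miR-205 at 52.27 CPM, miR-1 at 7600 CPM and miR-127 at 1260 CPM, each the highest of its 5 libraries. The share of 22 nt reads at 44.31% and the number of annotated sequences detected at 856 were the lowest of the 5. Among CD12 libraries they were miR-203a-3p at 3032 CPM, miR-1 at 4465 CPM and the 21 nt form of miR-193b-3p at 24.11 CPM, each the highest of 4. No cause was tested.

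The difference between P and C on D12 minus that on D20 passed the test for miR-205 (log2 value 3.488), miR-212 (3.158), miR-17-5p (2.116) and miR-411 (1.429) among miRNA sums, and for the canonical miR-205 among sequences (5.747), by the quasi-likelihood F-test of edgeR.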

How the results depend on the processing

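The count of 0 called miRNA sums on D12 held in all the alternatives run. Called sequences numbered 11 (all of miR-203a-3p) within the libraries numbered 25 to 36 and 1 by the likelihood ratio test, and called families numbered 1 by that test and 1 in the fit of all 30 libraries. Departures of D12 from D20 numbered 16 sequences and 12 miRNA sums by the likelihood ratio test, 4 and 13 with all deposited reads as library size, 4 and 4 at a mean of at least 10 CPM, and 1 and 3 with RLE normalization, where miR-411 was not called. The 4 sequences at 10 CPM or more did not include the canonical miR-205, and the 4 miRNA sums included miR-93-5p but not miR-212. That setting dropped features with a lower mean before the test, so a feature absent from its calls may not have been tested. Leaving out 1 D12 library gave 1 to 8 sequences, each time with the canonical miR-205 among them, and 0 to 8 miRNA sums. No D20 library was left out. Of 55 named features, 34 kept the sign of their log2FC in every alternative and 21 did not. With all deposited reads as library size, the log2FC turned to 0.21 for let-7f, 0.13 for miR-148a-3p, 0.18 for let-7i, 0.00718 for miR-30a-3p, 0.0102 for miR-182, 0.15 for miR-342 and 0.076 for miR-101. Within the libraries numbered 13 to 24 it was 0.0348 for miR-21, 0.0256 for let-7f, -0.57 for miR-99a, -0.27 for miR-409-5p, -1.61 for miR-203a-3p, 0.50 for miR-30a-3p, -0.14 for miR-205, -0.59 for miR-191, 0.37 for miR-182, -0.0744 for miR-451, 0.84 for miR-34c and -0.0657 for miR-17-5p. Within those numbered 25 to 36 it was 0.0192 for let-7i, -0.24 for miR-148b-3p, -0.62 for miR-205, -0.75 for miR-1, -0.0233 for miR-23a, 0.63 for miR-342, 0.15 for miR-27b-3p and -0.0654 for miR-127. With the run of library numbers as a covariate it was -0.40 for miR-205 and 0.079 for miR-34c. Leaving out 1 library gave a log2FC of -0.36 to 0.0206 for let-7i, -0.40 to 0.89 for miR-1, -0.44 to 0.00126 for miR-148a-3p, -0.11 to 0.54 for miR-191, -0.42 to 0.49 for miR-205, -0.58 to 0.0476 for miR-21, -0.75 to 0.14 for miR-30a-3p, -0.53 to 0.37 for miR-342, -0.59 to 0.50 for miR-34c and -0.41 to 1.28 for miR-99a. The cause of these shifts was not tested.

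The replicate numbers did not pair the libraries, since 1 of 4 same-numbered pairs had a correlation of deviations over 0.1 (range -0.13 to 0.36, against -0.67 to 0.68 for the other 16 pairs). Adding that number to the fit as a replicate block gave 0 called sequences, 0 miRNA sums, 0 families and 0 isomiR ratios, with 74, 22, 13 and 11 at an unadjusted p under 0.05. The block turned the log2FC of miR-34c to 0.046. With 5 and 4 libraries, intervals this wide leave small differences undecided, and the effect of read depth was not tested.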

Other observations

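Sequences outside the annotation were also counted. Of 3820 deposited sequences with at least 10 reads in at least 4 of the 9 libraries, 3006 were not annotated, and none of the 3820 was called by the quasi-likelihood F-test of edgeR (216 at an unadjusted p under 0.05, of which 165 not annotated). The smallest p belonged to an unannotated sequence of 22 nt, which is not printed. It had 4.51, 8.01, 14.6, 4.47 and 8.47 CPM in PD12 replicates 1 to 5 and 92.4, 77.7, 48.5 and 44.5 CPM in CD12 replicates 1 to 4, with every cyclic library above every pregnant one (log2FC -2.93, SE 0.46, edgeR adjusted p = 0.172, unadjusted p = 4.51e-05). The second was TAGCTTATCAGACTGATGTGAC, also of 22 nt and unannotated, which had 50.8, 81.1, 5.14, 56.9 and 0.876 CPM in PD12 replicates 1 to 5 and 0, 0.761, 0 and 0.377 CPM in CD12 replicates 1 to 4. PD12 replicates 1, 2 and 4 held nearly all of its reads, and CD12 replicates 1 and 3 had none. By its bases this sequence was close to miR-21, and the one with the smallest p was close to miR-143-3p. Whether they are variants of those miRNAs was not tested.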
